A study of Homo sapiens with 64 samples.

Results

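The genes described here are 10 that degrade heme, store and move iron, and sense it: HMOX1 and BLVRB, FTH1, FTL and NCOA4, TFRC, SLC11A2 and SLC40A1, and IREB2 and ACO1. They were picked by name out of 26364 genes in the count tables, and all 10 were expressed well enough to be tested among 15201 genes. The set was chosen because HMOX1 and FTH1 stood higher with siRNA-2 and did not with siRNA-3 or the shRNA, so the values of those genes in the knockdown comparisons are given as a description without a test. The study lowered NNT, the mitochondrial transhydrogenase that supplies NADPH, in NCI-H295R, a human adrenocortical carcinoma cell line that makes steroids, and sequenced poly(A)-selected RNA on stranded libraries.

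The 16 libraries fall into 5 groups, all from that cell line. There were 4 libraries of cells carrying an NNT shRNA, set against 3 of cells carrying a scrambled shRNA. There were 3 libraries of cells given an NNT siRNA named 2 in the titles and 3 of cells given an NNT siRNA named 3, both set against 3 of cells given a scrambled siRNA. The siRNA cells were taken 72 h after transfection, and no time is given for the shRNA cells. The descriptions speak of triplicates although 4 libraries carry the NNT shRNA label, and no label ties a library to its own culture. The p-values therefore gauge library-to-library variation alone, and it may be technical. Within each group the libraries are listed by replicate number, which has no order of its own.

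Heme oxygenase opens the heme ring and frees its iron, carbon monoxide and biliverdin. The freed iron can be stored in ferritin or exported by ferroportin, while transferrin receptor and the divalent metal transporter bring iron in. Iron regulatory proteins read the cell's iron level and bind a hairpin, the iron-responsive element: in the 5′ untranslated region of a transcript they block translation, and in the 3′ untranslated region of TFRC they protect the transcript from decay, so ferritin protein can change without its mRNA. Steroid-making cells are rich in mitochondrial and microsomal heme enzymes, the cytochromes P450.

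The iron-responsive elements of the set are shown because they tell apart the transcripts that the iron sensors can bind from those, such as HMOX1, that are known mainly for control of transcription. They were found in GENCODE transcripts on build GRCh38, with the 6-base loop in capitals, and are written as DNA. The FTH1 element lies at chr11:61967575-61967601 on the minus strand, the FTL element at chr19:48965336-48965362 on the plus strand and the SLC40A1 element at chr2:189580662-189580688 on the minus strand, all in the 5′ untranslated region.
FTH1: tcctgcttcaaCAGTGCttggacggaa
FTL: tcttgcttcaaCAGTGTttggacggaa
SLC40A1: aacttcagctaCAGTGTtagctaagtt
In TFRC the search matched 4 places in the 3′ untranslated region, on the minus strand of chromosome 3, at chr3:196050980-196051006, chr3:196050576-196050602, chr3:196050511-196050537 and chr3:196050464-196050490, in the order of the transcript.
TFRC 1: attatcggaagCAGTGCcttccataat
TFRC 2: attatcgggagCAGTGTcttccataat
TFRC 3: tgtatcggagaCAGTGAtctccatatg
TFRC 4: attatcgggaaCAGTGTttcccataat
The search took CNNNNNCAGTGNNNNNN on the transcript's own strand with 5 paired bases in the stem, G-T pairs allowed, and a last loop base other than G. It matched 13 of 18707 genes in the 5′ untranslated region (0.0695%) and 81 of 18927 in the 3′ untranslated region (0.428%). SLC11A2 had no match to these letters with all 5 stem pairs. A hairpin with an imperfect stem would be missed by the search, so whether SLC11A2 holds an element was not tested.

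Libraries held 20148231 to 43992833 reads counted in genes, and 17567 to 18571 genes had a read. NNT was low throughout both other knockdowns and unevenly so with siRNA-2: 28.7, 29.8, 34.6 and 34.0 CPM (reads scaled to a common library size, with totals adjusted by the trimmed mean of M-values) with the shRNA, 233, 49.9 and 187 CPM with siRNA-2 and 36.1, 31.8 and 47.8 CPM with siRNA-3, against 381, 317 and 415 CPM with the scrambled shRNA and 353, 296 and 362 CPM with the scrambled siRNA. The log2 difference of NNT was -3.54 with the shRNA and -3.13 with siRNA-3 (adjusted p = 2.36e-05 and 0.000172 by edgeR's quasi-likelihood test), and -1.11 with siRNA-2, which did not pass (adjusted p = 0.0777). Replicate 2 of siRNA-2 stood apart, with the lowest NNT of its group and the highest share of reads outside genes (16.5%, against 11.3% in the lowest library). It also had the highest HMOX1, FTH1 and FTL of all libraries. Several results that rest on it are therefore also given without it or library by library. All 10 adrenocortical markers were at 1 CPM or more on average in every group, and summed to 3241 to 5086 CPM per library. Markers of the cells best known for handling heme iron were near 0: 8 macrophage markers summed to 0.648 to 1.99 CPM and 8 erythroid markers to 0.0614 to 0.528 CPM, with AIF1, ALAS2 and EPB42 at 0.

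Per kilobase of the principal transcript, which allows levels of different genes to be compared, ferritin heavy chain led and ferroportin came last. FTH1 averaged 796 to 1612 CPM per kilobase over the 5 groups, FTL 468 to 677 and TFRC 342 to 380. NCOA4, the receptor that carries ferritin to the lysosome, followed at 93.3 to 109 CPM per kilobase. IREB2 at 53.1 to 67.2 and BLVRB at 55.6 to 66.6 overlapped. SLC11A2 averaged 16.9 to 26.1 CPM per kilobase, HMOX1 4.71 to 17.5 and ACO1 9.33 to 11.1, which overlapped, and SLC40A1 1.80 to 2.79. HMOX1 spanned the widest range, its highest library standing 7.02 times above its lowest. FTH1 at 3.27 times, SLC40A1 at 2.31 times and FTL at 2.06 times followed. The remaining 6 genes spanned 1.36 to 1.84 times. For HMOX1, FTH1 and FTL the highest library was replicate 2 of siRNA-2, at 28.6, 2291 and 894 CPM per kilobase. In the other libraries they reached 13.9, 1428 and 723, so the places of FTH1 and FTL in this order rest on that library. HMOX1 and FTH1 were also chosen for their siRNA-2 values. HMOX1 rested on 250 to 1186 reads per library and SLC40A1 on 114 to 361, and each of the other 8 genes on at least 1168.

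HMOX1, the heme oxygenase induced by heme and by oxidative stress, lies on chromosome 22 from 35380361 to 35394214 (GRCh38). It stood at 18.4, 52.2 and 25.2 CPM with siRNA-2 and at 7.44, 8.19 and 10.1 CPM with siRNA-3, against 12.7, 12.8 and 14.1 CPM with the scrambled siRNA. Every siRNA-2 library was above, and every siRNA-3 library below, all scrambled siRNA libraries. The estimate was 2.41-fold higher with siRNA-2 (log2 1.27) and 1.54-fold lower with siRNA-3 (log2 -0.62). Without replicate 2 of siRNA-2 the log2 difference was 0.73, and the groups still did not overlap. With the shRNA HMOX1 stood at 14.1, 13.8, 10.2 and 11.6 CPM, against 14.4, 14.6 and 13.7 CPM with the scrambled shRNA, and the groups overlapped (log2 -0.20). In RNA from whole cultures, fewer cells that express a gene and less of its RNA per cell cannot be told apart. HMOX2, the constitutive heme oxygenase, differed less: per length, HMOX1 was 1.82 ± 0.91 times HMOX2 with siRNA-2 and 0.637 ± 0.098 times with siRNA-3, against 0.896 ± 0.055 times with the scrambled siRNA (SD, n = 3 each).

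**Figure D1:**
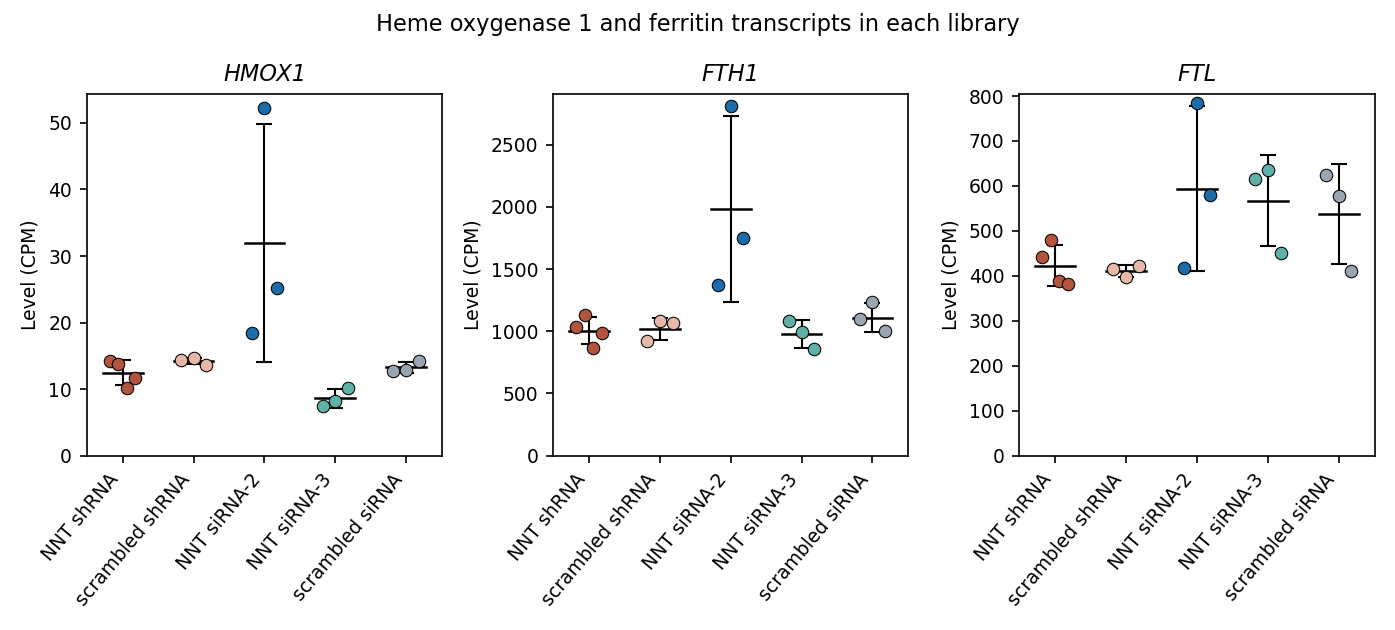
Levels of HMOX1, FTH1 and FTL in CPM (y axes, from 0) in each library (points) of the 5 groups, with the group mean (bar) and SD (whiskers). The siRNA-2 libraries reach 52.2 CPM for HMOX1 and 2816 CPM for FTH1, above every other group, while for FTL the siRNA-2, siRNA-3 and scrambled siRNA points overlap.

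FTH1, the ferritin heavy chain whose ferroxidase site prepares iron for storage, lies on chromosome 11 from 61959718 to 61967660, where BEST1 overlaps it on the opposite strand. It stood at 1374, 2816 and 1754 CPM with siRNA-2 and at 1079, 994 and 860 CPM with siRNA-3, against 1095, 1234 and 999 CPM with the scrambled siRNA. The siRNA-2 libraries lay above all others and the siRNA-3 libraries overlapped their controls. The log2 estimates were 0.84 with siRNA-2, or 0.50 without its replicate 2, and -0.18 with siRNA-3. With the shRNA FTH1 stood at 1033, 1129, 867 and 985 CPM, against 920, 1079 and 1064 CPM with the scrambled shRNA, a log2 difference of -0.03. BACH1, TFRC, IREB2, BLVRB, HMOX2 and NNT also have an annotated gene on the opposite strand, and reads from such pairs may be shared. Reads that fit a ferritin gene and a near-identical pseudogene equally well could be missing from both counts. Reads set aside as not uniquely aligned made up 7.47 to 8.17% per library. Whether ferritin reads were among them was not tested. FTH1P3 collected 155 reads over all libraries, at most 17 in a library, and FTH1P18 and FTLP10 had none.

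FTL, the ferritin light chain that helps form the mineral core, lies on chromosome 19 from 48965301 to 48966878. It stood at 418, 785 and 580 CPM with siRNA-2 and at 615, 635 and 451 CPM with siRNA-3, against 623, 578 and 411 CPM with the scrambled siRNA. Replicate 2 of siRNA-2 and replicate 2 of siRNA-3 lay above the controls, the 3 groups overlapped, and within siRNA-2 the libraries stood in the same order as for FTH1. The log2 difference was 0.14 with siRNA-2 (95% interval -0.24 to 0.53, adjusted p = 0.730 by edgeR's quasi-likelihood test) and -0.11 without replicate 2 of siRNA-2. It was 0.08 with siRNA-3 (interval -0.31 to 0.46) and 0.04 with the shRNA (interval -0.32 to 0.40), whose libraries held 441, 479, 389 and 381 CPM, against 414, 397 and 422 CPM with the scrambled shRNA.

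The balance of the ferritin chains differed between the siRNAs. Per length, FTH1 was 2.35, 2.56 and 2.16 times FTL with siRNA-2 and 1.25, 1.12 and 1.36 times with siRNA-3, against 1.25, 1.53 and 1.73 times with the scrambled siRNA. All 3 siRNA-2 libraries, including the replicates other than replicate 2, had a higher ratio than each of the 13 other libraries, of which the highest was 1.94. The ratio was 1.70 ± 0.11 with the shRNA (SD, n = 4), against 1.78 ± 0.18 with the scrambled shRNA (SD, n = 3). Since FTH1 was picked for its siRNA-2 values, the ratio is given without a test.

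**Figure D2:**
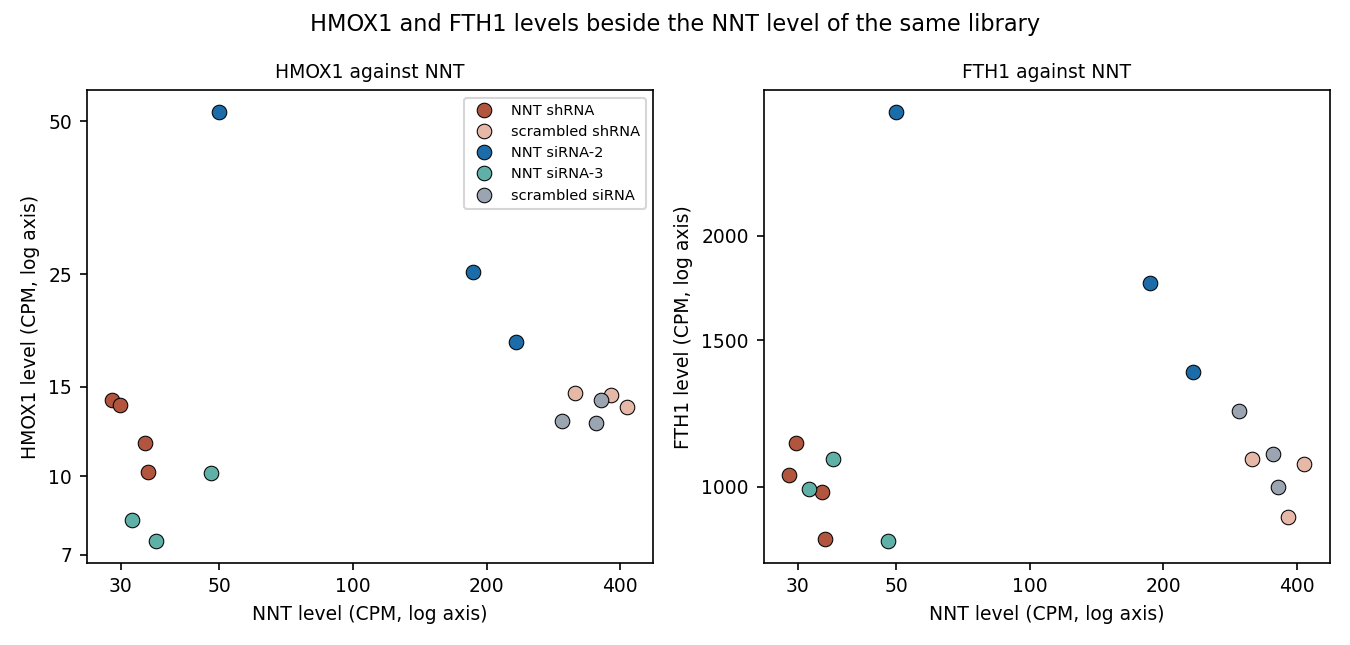
HMOX1 (left) and FTH1 (right) level against the NNT level of the same library, both in CPM on log axes, for the 16 libraries coloured by group. Within siRNA-2 the library at 49.9 CPM of NNT has the highest HMOX1 and FTH1, while the shRNA and siRNA-3 libraries at 28.7 to 47.8 CPM of NNT have HMOX1 of 7.44 to 14.1 CPM.

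Among the 3 siRNA-2 libraries, HMOX1 and FTH1 were higher where NNT was lower. Across groups this order did not hold. The shRNA and siRNA-3 libraries had 28.7 to 47.8 CPM of NNT and at most 14.1 CPM of HMOX1 and 1129 CPM of FTH1, as the plot of HMOX1 and FTH1 against NNT shows. The siRNA-2 libraries with 187 and 233 CPM of NNT held 25.2 and 18.4 CPM of HMOX1.

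None of the other 8 genes passed the threshold (adjusted p under 0.05 by edgeR's quasi-likelihood test, Benjamini-Hochberg over all 15201 genes) in any comparison of a knockdown with its control. That test called 1.97% of all genes with siRNA-2, 2.12% with siRNA-3 and 0.0197% with the shRNA, or 3 genes, which was 1 gene with the title code as a replicate block. At an unadjusted p under 0.05 there were 3 of the 8 with siRNA-2 (SLC40A1, SLC11A2 and NCOA4), where 18.6% of all genes were, 2 with siRNA-3 (SLC11A2 and IREB2), where 17.8% were, and 0 with the shRNA, where 1.43% were. DESeq2 called 2 of the 8 with siRNA-2, beside 6.75% of all genes it gave an adjusted p, 1 with siRNA-3, beside 6.1%, and 0 with the shRNA, beside 0.0197%. Counting genes whose libraries did not overlap their controls, 6 of 10 members separated with siRNA-2, where 22.4% of all genes did, 2 of 10 with siRNA-3 (21.1% of all genes) and 1 of 10 with the shRNA (3.19%). The set was chosen on these comparisons, so nothing is read from these shares. Both siRNAs share the scrambled siRNA libraries. The median log2 difference of the 10 genes was -0.02 with siRNA-2, 0.00 with siRNA-3 and -0.01 with the shRNA, beside 0.01, -0.00 and 0.01 over all genes.

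**Figure D3:**
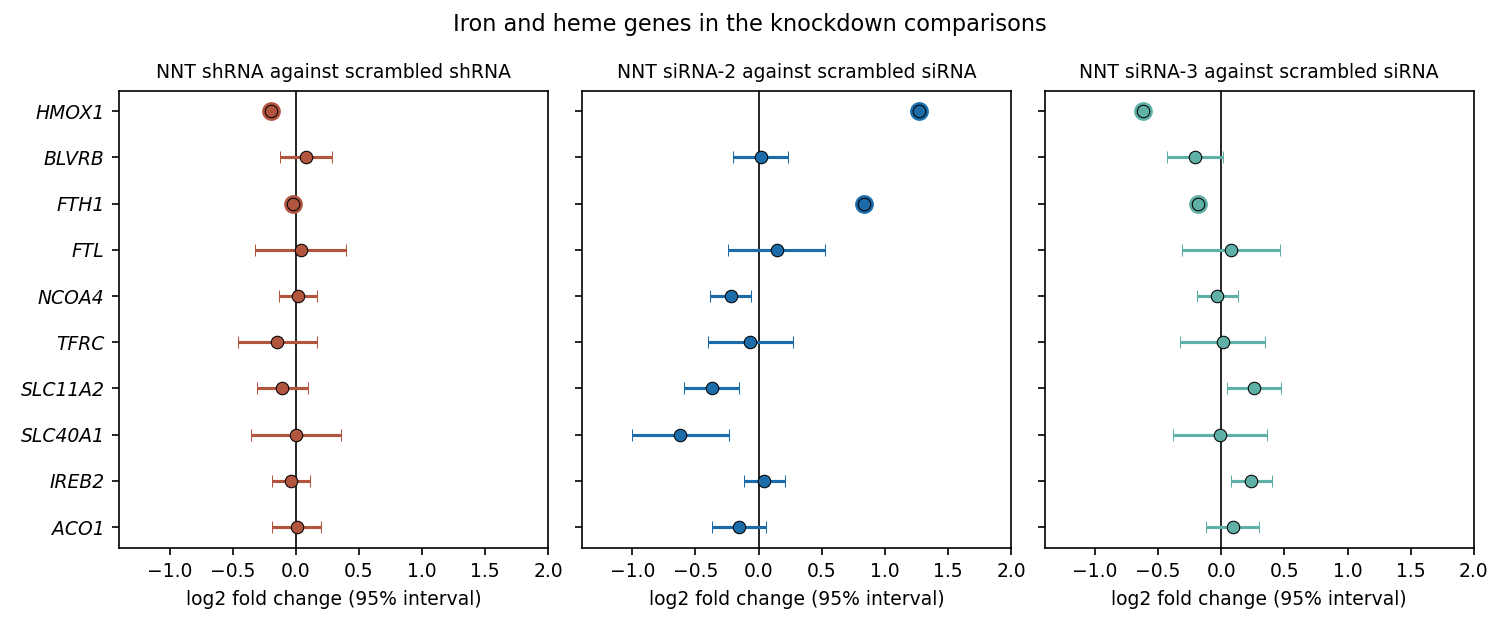
Log2 fold change of the 10 genes (rows) in the shRNA, siRNA-2 and siRNA-3 comparisons with their scrambled controls, with 95% intervals from edgeR's fit. HMOX1 and FTH1, ringed and drawn without intervals because they chose the set, stand at 1.27 and 0.84 with siRNA-2, and SLC40A1 and SLC11A2 lie at -0.62 and -0.37 in the same panel.

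The iron transporters were where the other members differed most. SLC40A1, ferroportin, the known exporter of cellular iron, lies on chromosome 2 from 189560579 to 189583758. It stood at 6.81, 5.02 and 6.91 CPM with siRNA-2 and at 10.7, 10.0 and 7.99 CPM with siRNA-3, against 10.9, 10.5 and 7.37 CPM with the scrambled siRNA. The siRNA-2 libraries were below all of the others given siRNA, and at the level of the shRNA (6.40, 6.12, 6.20 and 6.23 CPM) and scrambled shRNA libraries (7.12, 4.71 and 6.80 CPM). The log2 difference from the scrambled siRNA was -0.62 with siRNA-2 (SE 0.18, adjusted p = 0.0808 by edgeR's quasi-likelihood test) and -0.01 with siRNA-3 (interval -0.38 to 0.37). With the shRNA it was 0.00 (interval -0.36 to 0.36). Without the scrambled siRNA replicate 3, the lowest of its group, the siRNA-2 difference passed at -0.78 (adjusted p = 0.0417). That was the largest of the fits leaving out 1 library, which ran from -0.78 to -0.49.

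SLC11A2, the divalent metal transporter DMT1, moves iron out of endosomes and lies on chromosome 12 from 50979401 to 51028566. It stood at 65.9, 74.4 and 70.2 CPM with siRNA-2 and at 121, 114 and 91.3 CPM with siRNA-3, against 95.4, 98.6 and 78.1 CPM with the scrambled siRNA. The siRNA-2 libraries were the lowest of all 16, and the siRNA-3 libraries overlapped their controls. The log2 difference was -0.37 with siRNA-2 (SE 0.10, adjusted p = 0.0637 by edgeR's quasi-likelihood test) and 0.26 with siRNA-3 (SE 0.10, adjusted p = 0.185). Without the scrambled siRNA replicate 3 the siRNA-2 difference passed at -0.47 (adjusted p = 0.0333), and without the siRNA-3 replicate 3 the siRNA-3 difference passed at 0.37 (adjusted p = 0.0416). With the shRNA SLC11A2 stood at 75.2, 76.2, 76.6 and 79.2 CPM, against 79.3, 83.0 and 85.7 CPM with the scrambled shRNA. These groups just failed to overlap, and the log2 difference was -0.11 (interval -0.31 to 0.09).

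Set directly against each other, the siRNAs differed in both transporters. SLC11A2 was 1.55-fold lower with siRNA-2 than with siRNA-3 (log2 -0.63, SE 0.10, adjusted p = 0.000954 by edgeR's quasi-likelihood test), lower in every library, and passed without any 1 of the 6 libraries. SLC40A1 was 1.53-fold lower (log2 -0.61, SE 0.18, adjusted p = 0.0311), also in every library. Its call was lost without replicate 2 of siRNA-2 (log2 -0.48, adjusted p = 0.135), replicate 1 of siRNA-3 (-0.53, 0.122) or replicate 2 of siRNA-3 (-0.58, 0.0766). These 2 of the 8 members passed in a comparison that called 14.4% of all genes. DESeq2 also called 2 of the 8, beside 18.6% of all genes. An unadjusted p under 0.05 was reached by 6 of the 8 members, beside 29.7% of all genes, and 8 of the 10 members separated without overlap where 31.6% of all genes did. The members that separated include HMOX1 and FTH1, on which the set was chosen, so nothing is read from that count. With siRNA-2, HMOX1 and FTH1 exceeded their siRNA-3 levels by 1.89 and 1.02 on the log2 scale, or 1.35 and 0.68 without replicate 2 of siRNA-2, as their choice implies. NNT itself was 4.06-fold above its siRNA-3 level in the siRNA-2 libraries (log2 2.02, adjusted p = 0.00111), and the part of that difference in these values was not tested.

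**Figure D4:**
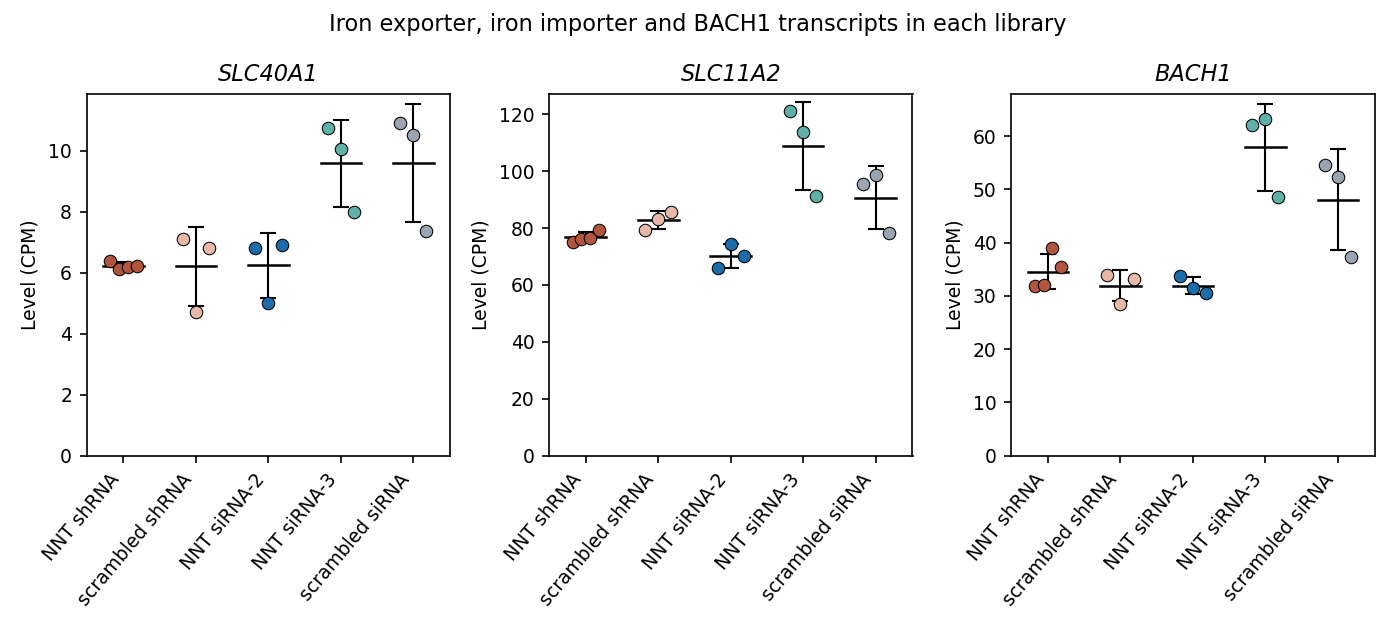
Levels of SLC40A1, SLC11A2 and BACH1 in CPM (y axes, from 0) in each library (points) of the 5 groups, with the group mean (bar) and SD (whiskers). The siRNA-2 points, at 5.02 to 6.91, 65.9 to 74.4 and 30.6 to 33.7 CPM, lie below all siRNA-3 and scrambled siRNA points and close to the shRNA groups.

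Signs of other cells and of RNA quality were read beside these differences. The 7 chromaffin and neural markers summed to 57.3 to 71.6 CPM with siRNA-2 and 33.0 to 43.9 CPM with siRNA-3, against 43.9 to 50.3 CPM with the scrambled siRNA, with PNMT at 0. Of that list, 3 markers averaged at least 1 CPM with siRNA-2 and with the scrambled siRNA, and 2 with siRNA-3. The 9 endothelial and fibroblast markers summed to 13.5 to 22.4 CPM with siRNA-2 and 8.38 to 11.8 CPM with siRNA-3, against 12.3 to 15.6 CPM with the scrambled siRNA. Transcripts listed as lacking a poly(A) tail summed to 165 to 182 CPM with siRNA-2 and 123 to 196 CPM with siRNA-3, against 120 to 208 CPM with the scrambled siRNA. The histone gene HIST1H2BK was the highest of them, averaging 92.3, 84.7 and 77.5 CPM in those groups. Whether its reads came from tailed RNA was not tested, so this sum is a weak sign of RNA quality. The 10 adrenocortical markers summed to 3747 to 4161 CPM with siRNA-2 and 4330 to 5086 CPM with siRNA-3, against 3748 to 4960 CPM with the scrambled siRNA. The adrenocortical, chromaffin and endothelial sums did not overlap between the siRNAs, and their part in the results was not tested.

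TFRC, the transferrin receptor, whose transcript is stabilised by the sensors through the elements printed above, varied more within groups than between them. It lies on chromosome 3 from 196027183 to 196082189. It stood at 1654, 1816 and 1780 CPM with siRNA-2 and at 2359, 1696 and 1483 CPM with siRNA-3, against 1724, 2203 and 1566 CPM with the scrambled siRNA. The groups overlapped, and the log2 difference was -0.07 with siRNA-2 (interval -0.40 to 0.27) and 0.01 with siRNA-3 (interval -0.32 to 0.35). With the shRNA it stood at 1651, 1641, 1822 and 1897 CPM, against 1881, 1561 and 2380 CPM with the scrambled shRNA (log2 -0.15, interval -0.46 to 0.17). Per length, TFRC was 0.229 ± 0.068 times FTH1 with siRNA-2 and 0.450 ± 0.065 times with siRNA-3, against 0.395 ± 0.030 times with the scrambled siRNA (SD, n = 3 each), as a description. In siRNA-2 this ratio was 0.155 in replicate 2, and 0.290 and 0.244 in replicates 1 and 3.

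The sensors IREB2 and ACO1, which encode the iron regulatory proteins 2 and 1, differed little. IREB2 stood at 376, 393 and 353 CPM with siRNA-2 and at 434, 449 and 399 CPM with siRNA-3, against 343, 374 and 370 CPM with the scrambled siRNA. All siRNA-3 libraries were above their controls, with a log2 difference of 0.24 (SE 0.08, adjusted p = 0.102 by edgeR's quasi-likelihood test), and the siRNA-2 libraries overlapped them (0.05, interval -0.11 to 0.21). ACO1, which is also the cytosolic aconitase, stood at 72.1, 66.4 and 70.6 CPM with siRNA-2 and at 95.5, 76.7 and 75.9 CPM with siRNA-3, against 81.9, 74.1 and 77.0 CPM with the scrambled siRNA, log2 differences of -0.16 (interval -0.37 to 0.06) and 0.09 (interval -0.12 to 0.30). Its siRNA-2 libraries lay just below all controls, and its siRNA-3 libraries overlapped them. With the shRNA, IREB2 ranged from 316 to 365 CPM, against 341 to 354 CPM with the scrambled shRNA (log2 -0.04, interval -0.18 to 0.11), and ACO1 from 66.5 to 78.1 CPM, against 65.7 to 79.1 CPM (log2 0.01, interval -0.19 to 0.20).

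NCOA4 and BLVRB, at the release end of ferritin and of heme breakdown, also stayed within narrow ranges. NCOA4 stood at 228, 195 and 223 CPM with siRNA-2 and at 252, 254 and 230 CPM with siRNA-3, against 246, 265 and 240 CPM with the scrambled siRNA. The siRNA-2 libraries were below all controls, with a log2 difference of -0.22 (SE 0.08, adjusted p = 0.126 by edgeR's quasi-likelihood test), and with siRNA-3 it was -0.03 (interval -0.19 to 0.13). BLVRB, a biliverdin and flavin reductase, stood at 55.0, 56.4 and 63.1 CPM with siRNA-2 and at 43.0, 52.4 and 54.0 CPM with siRNA-3, against 59.0, 53.6 and 60.1 CPM with the scrambled siRNA, log2 differences of 0.02 (interval -0.20 to 0.24) and -0.21 (interval -0.43 to 0.01). With the shRNA, NCOA4 ranged from 210 to 233 CPM, against 214 to 224 CPM with the scrambled shRNA (log2 0.02, interval -0.13 to 0.17), and BLVRB from 46.6 to 58.2 CPM, against 44.4 to 51.0 CPM (log2 0.08, interval -0.12 to 0.29).

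The effect of siRNA-2 was also set against that of the shRNA, each relative to its own scrambled control. Of the 8 members other than HMOX1 and FTH1, 0 passed by edgeR's quasi-likelihood test and 0 by DESeq2, where the first called 0.0329% and the second 0.906% of all genes. At an unadjusted p under 0.05, where 10.2% of all genes were, there were 2, SLC40A1 (log2 difference of effects -0.62, adjusted p = 0.409) and NCOA4 (-0.24, adjusted p = 0.455). For HMOX1 the effects differed by 1.47 and for FTH1 by 0.86 on the log2 scale, as a description.

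The scrambled controls of the siRNA and shRNA arms were compared because this contrast played no part in the choice of the set. HMOX1 stood at 12.7, 12.8 and 14.1 CPM with the scrambled siRNA, against 14.4, 14.6 and 13.7 CPM with the scrambled shRNA (log2 -0.11, interval -0.65 to 0.43), and FTH1 differed by 0.12 (interval -0.26 to 0.49). Of all 10 genes 0 passed by edgeR's quasi-likelihood test, which called 1.74% of all genes. At an unadjusted p under 0.05 there were 4, beside 16.8% of all genes, and DESeq2 called 1, SLC40A1, beside 4.69% of all genes. SLC40A1, NCOA4 and BLVRB were higher with the scrambled siRNA in every library, 3 of 10 genes where 24.2% of all genes separated. SLC40A1 had the largest log2 difference of the 10, 0.63 (SE 0.18, adjusted p = 0.0870), which was 0.79 without the scrambled siRNA replicate 3 (adjusted p = 0.0297). Over all fits leaving out 1 library, the SLC40A1 difference ran from 0.47 to 0.79. FTL differed by 0.39 (interval 0.00 to 0.77, adjusted p = 0.297). The arms differ in the kind of RNA the cells received, and no time is given for the shRNA cells, so what separates these controls cannot be told apart.

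Other genes of heme and iron metabolism were read from 9 lists holding 116 genes, of which 111 had a row and 101 were tested. With siRNA-2, 5 of the 101 passed, 1 higher and 4 lower, by edgeR's quasi-likelihood test, which called 1.97% of all genes. All 5 lost their call when only the siRNA-2 and scrambled siRNA libraries were fitted (adjusted p = 0.156 to 0.204). With siRNA-3, 2 of the 101 passed, both lower, a share near the 2.12% of all genes. With the shRNA 0 passed, 0 had an unadjusted p under 0.05 and DESeq2 called 0. The median log2 difference of the 101 genes was 0.00 with siRNA-2, -0.02 with siRNA-3 and 0.01 with the shRNA.

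BACH1, the repressor that heme dislodges from the HMOX1 gene, belongs to the 9 tested transcription regulators of HMOX1. It stood at 33.7, 31.5 and 30.6 CPM with siRNA-2 and at 62.1, 63.2 and 48.5 CPM with siRNA-3, against 54.6, 52.4 and 37.3 CPM with the scrambled siRNA. BACH1 fell to the siRNA-2 values without overlap (log2 -0.59, SE 0.14, adjusted p = 0.0339 by edgeR's quasi-likelihood test), and its siRNA-3 difference of 0.27 did not pass (adjusted p = 0.312). The siRNA-2 call was lost without replicate 2 (-0.58, adjusted p = 0.131) or replicate 3 (-0.57, 0.0750) of siRNA-2, and without replicate 1 (-0.49, 0.139) or replicate 2 (-0.53, 0.144) of the scrambled siRNA. The scrambled shRNA libraries, at 33.9, 28.5 and 33.2 CPM, lay at the siRNA-2 level too, and BACH1 was higher with the scrambled siRNA than with the scrambled shRNA by 0.60 (adjusted p = 0.0321). That call was lost without any 1 of 5 libraries, at an adjusted p of 0.0783 to 0.171, and held without replicate 3 of the scrambled siRNA. The other regulator that fell with siRNA-2 was NR1D1, the heme-binding nuclear receptor REV-ERBα, at 24.03, 19.7 and 21.7 CPM, against 36.5, 39.5 and 34.2 CPM with the scrambled siRNA (log2 -0.75, SE 0.18, adjusted p = 0.0357). It was lost without replicate 2 or 3 of siRNA-2 or replicate 1 or 2 of the scrambled siRNA, at an adjusted p of 0.0682 to 0.153. The remaining 7 regulators did not pass in that comparison.

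Among carriers of heme, PGRMC1, a heme-binding membrane protein, stood at 199, 110 and 184 CPM with siRNA-2, against 292, 307 and 259 CPM with the scrambled siRNA. The log2 difference was -0.80 (SE 0.16, adjusted p = 0.0245 by edgeR's quasi-likelihood test), a call lost without the scrambled siRNA replicate 1 or 2 (adjusted p = 0.0784 and 0.0978). Over all fits leaving out 1 library, the PGRMC1 difference ran from -0.96 to -0.58. SLC48A1, which moves heme out of endosomes and lysosomes, stood at 24.9, 30.0 and 25.1 CPM with siRNA-3, against 41.4, 45.5 and 36.2 CPM with the scrambled siRNA. It fell by 0.62 (SE 0.13, adjusted p = 0.0197), a call lost without replicate 1 of siRNA-3 (0.130) or replicate 1 or 2 of the scrambled siRNA (0.0759 and 0.0983), and in a fit of the compared groups alone (0.0611). With siRNA-2 its difference was 0.12.

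SLC39A14, the metal transporter ZIP14 that takes up iron not bound to transferrin, fell with siRNA-3 to 44.7, 36.5 and 49.7 CPM, against 76.5, 76.6 and 73.1 CPM with the scrambled siRNA. The log2 difference was -0.79 (SE 0.11, adjusted p = 0.00137 by edgeR's quasi-likelihood test) and passed without any 1 library. With siRNA-2 it stood at 76.2, 91.7 and 79.8 CPM (log2 0.13, interval -0.10 to 0.36). BMP6, a signal for hepcidin in liver, did not pass with either siRNA (0.45 and -0.39, adjusted p = 0.0947 and 0.160).

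EPAS1, which encodes HIF-2α and whose transcript is known for a 5′ iron-responsive element, was the gene of the lists that rose with siRNA-2. It stood at 11.3, 20.02 and 12.9 CPM with siRNA-2, against 8.56, 8.90 and 6.43 CPM with the scrambled siRNA (log2 0.88, SE 0.19, adjusted p = 0.0265 by edgeR's quasi-likelihood test). The call was lost without replicate 2 of siRNA-2 (0.60, adjusted p = 0.120) and without each scrambled siRNA library in turn (0.0602 to 0.0828). TXN, thioredoxin, is a target of NRF2, the transcription factor that also drives HMOX1, FTH1 and FTL. It fell to 285, 179 and 291 CPM with siRNA-2, against 418, 400 and 392 CPM with the scrambled siRNA (log2 -0.68, SE 0.14, adjusted p = 0.0247), lost without replicate 2 of siRNA-2 (-0.49, 0.0612) or the scrambled siRNA replicate 1 or 2 (0.0794 and 0.0846).

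Lists without a gene past the threshold are given by their smallest p. ALAD, an enzyme of heme synthesis, differed by -0.22 with siRNA-2 (adjusted p = 0.0897), and CPOX of the same pathway by -0.26 with siRNA-3 (0.163), both by edgeR's quasi-likelihood test. PCBP2, an iron chaperone that loads ferritin, differed by 0.22 with siRNA-2 (0.124), and HEPH, a ferroxidase that works with ferroportin, by -0.32 with siRNA-3 (0.191). Of the iron-sulfur cluster genes, HSPA9 and CIAO1 differed by 0.30 and -0.11 with siRNA-2 (0.0883 and 0.445), and FDX1 and NUBP1 by 0.43 and 0.30 with siRNA-3 (0.203 and 0.165). CDC14A, another transcript known for an iron-responsive element, differed by 0.36 with siRNA-3 (0.270).

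**Figure D5:**
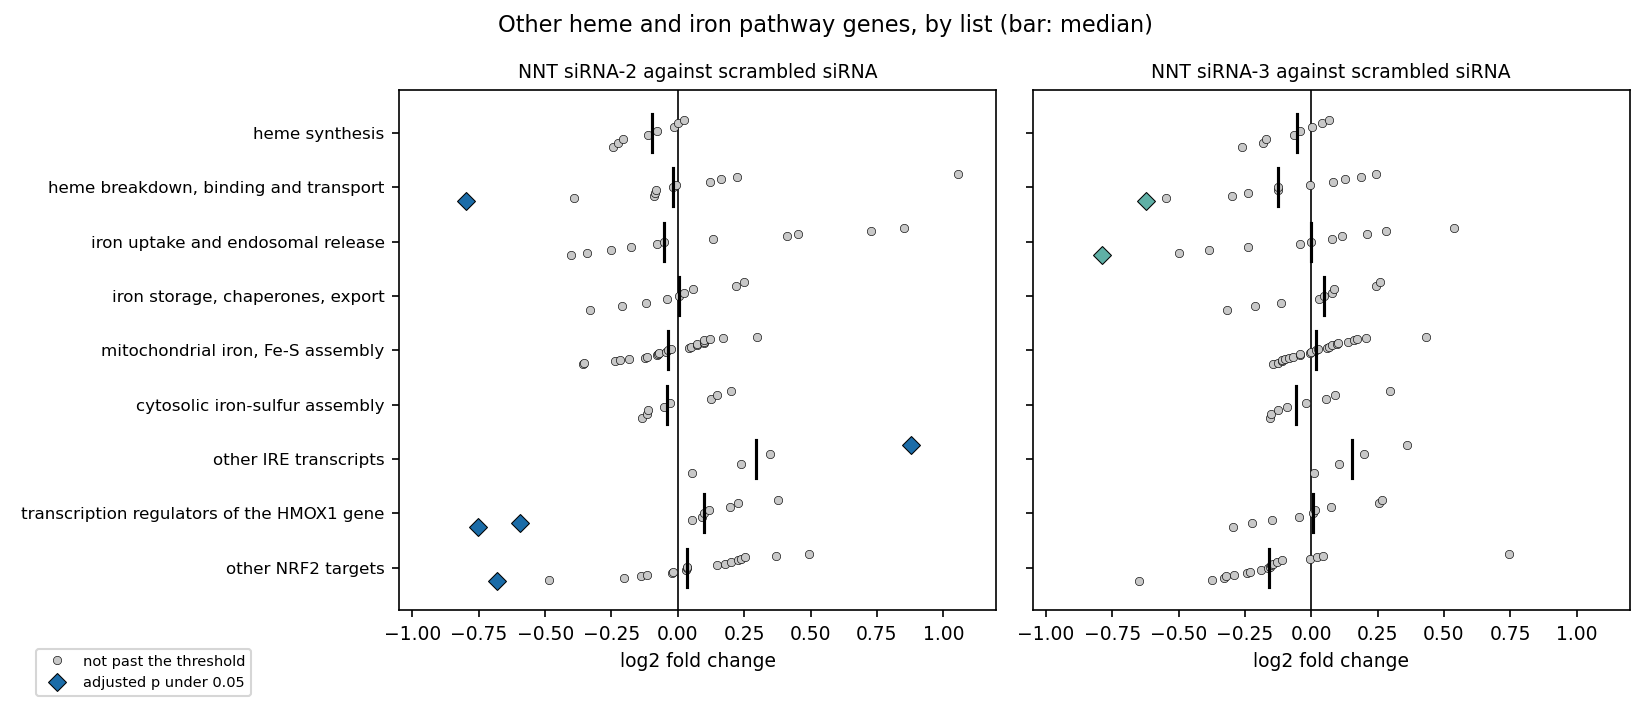
Log2 fold change with siRNA-2 (left) and siRNA-3 (right) against the scrambled siRNA for the 101 tested genes of 9 heme and iron lists (rows). Circles did not pass the threshold, coloured diamonds had an adjusted p under 0.05 and bars are list medians: 5 genes pass on the left and 2 on the right.

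Between the siRNAs, 18 of the 101 genes passed, 9 higher and 9 lower with siRNA-2 than with siRNA-3, in a comparison that called 14.4% of all genes. SLC39A14 was higher by 0.92, BMP6 by 0.84 and SLC48A1 by 0.74 on the log2 scale, and BACH1 and PGRMC1 were lower by 0.86 and 0.99, with adjusted p-values of 0.000118 to 0.00163 by edgeR's quasi-likelihood test. These 5 passed without any 1 library. Of the 18 tested NRF2 targets, NQO1 and SRXN1 were higher by 0.74 and 0.41 (adjusted p = 0.00308 and 0.00599) and TXN was lower by 0.54 (0.0154), which was lost at 0.0508 without replicate 1 of siRNA-3. In this list 15 of 18 genes were above 0 with a median of 0.21, beside 50.9% of all genes and a median of 0.01. Against the scrambled siRNA, 11 of the 18 were above 0 with siRNA-2 (median 0.03), beside 51.3% of all genes. With siRNA-3, 3 of the 18 were above 0 (median -0.16), beside 49.5% of all genes. FBXL5, which marks iron regulatory protein 2 for degradation, was lower by 0.46 (0.00874), and CISD1, an outer mitochondrial iron-sulfur protein, by 0.53 (0.00510). EPAS1 was higher by 0.68 (0.0186) and NR1D1 lower by 0.53 (0.0493). Also past the threshold were HMOX2 and STEAP3, higher by 0.35 and 0.91, and ALAD, LYRM4 and SLC39A8, lower by 0.23, 0.37 and 0.33 (0.0319 to 0.0496). EPAS1, NR1D1 and these 5 each lost their call without any 1 of 3 or more of the 6 libraries, and without replicate 2 of siRNA-2 in every case (0.0857 to 0.216).

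Outside the pathway, the genes whose log2 CPM over the 16 libraries was most like that of HMOX1, among 10191 genes, were SLC7A8 (Pearson r 0.95), EFNA3 (0.94), CCNO (0.93), FKBP5 (0.93) and KITLG (0.93). For FTH1 they were WARS (0.94), NAB2 (0.93), CD82 (0.93), PVR (0.92) and CACNA1H (0.92). All 10 were higher with siRNA-2 than with the scrambled siRNA, by 0.37 to 0.98 on the log2 scale, as likeness to HMOX1 and FTH1 over the same libraries implies.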

How the data were processed

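RNA from 16 libraries was sequenced on 4 lanes each, giving 64 tables of read counts per gene. Per the submitters' processing notes, the deposited counts involved STAR 2.4.2a, HTSeq 0.6.1p1, DESeq2 1.14.1 and hg19. Which annotation, counting mode or strand option HTSeq had is not given in the sources used here, and genes that overlap are uncertain. Lanes were summed, and rows that name no gene (11.3 to 16.5% no feature) were left out. One model per gene was fitted to all 16 libraries with edgeR 4.0.16 (R 4.3.3; TMM scaling, filterByExpr with a minimum count of 10, a term per group, quasi-likelihood F test, Benjamini-Hochberg over 15201 genes, threshold 0.05). CPM use TMM-scaled totals, SEs are the log2 fold change over the square root of F, and intervals are 95%. With 11 residual degrees of freedom the coefficient of variation was 0.118. Summaries used Python 3.11.15 with pandas 2.3.3. The script was tested on simulated data. Lengths, positions and hairpins come from GENCODE on GRCh38, not the files' build.

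The members and lists were chosen with earlier results of these data known. Named genes were the members, the listed genes past the threshold (at most 4 per list, otherwise the smallest p with each siRNA) and the 5 most like HMOX1 and FTH1. Some genes of the lists are counted but not reported here by name. Lanes of a library differed by about counting noise (chi-square per degree of freedom 0.979 to 1.05) and libraries of a group by more (7.71 to 34.6), so no library was counted as a repeat. Titles carry a code that groups share. In the shRNA arm the deviations of same-code libraries correlated at 0.133 to 0.213 over 3 pairs, which were taken as paired, although 1 pair with different codes reached 0.156. The values given are from the fit without the code, and the code as a block is an alternative. In the siRNA arm the correlations were -0.0190 to 0.367 over 4 same-code pairs, and the code was not taken to pair. The siRNA-3 and scrambled siRNA libraries with codes 23-5 and 30-11 correlated at 0.361 and 0.367. Both lay above every siRNA pair with different codes (at most 0.170) and above the shRNA pairs. The p-values with siRNA-3, like those with the shRNA, therefore come from a fit that leaves out a possible pairing. Alternatives were DESeq2's size factors, DESeq2 1.42.0, 2 other filters on low counts, only the groups compared, the code as a block, lane 1 alone, raw totals for CPM and leaving out each library.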

Additional observations from a re-analysis of the deposited data

Results flagged for a closer look

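Between the siRNAs, 3 genes of the set were flagged for their effects relative to the shared scrambled siRNA libraries. SLC11A2 and SLC40A1 were flagged because they passed the threshold, a rule not applied to HMOX1 and FTH1. HMOX1 was flagged because its siRNA-2 and siRNA-3 libraries lay on opposite sides of all scrambled siRNA libraries. FTH1 met neither rule, although its effects differed by 1.02, more than those of SLC11A2 and SLC40A1. They were 0.84 for siRNA-2 and -0.18 for siRNA-3. For SLC11A2 the effects differed by -0.63 on the log2 scale (siRNA-2 minus siRNA-3, adjusted p = 0.000954 by edgeR's quasi-likelihood test), with -0.37 for siRNA-2 and 0.26 for siRNA-3. For SLC40A1 they differed by -0.61 (adjusted p = 0.0311), with -0.62 for siRNA-2 and -0.01 for siRNA-3. For HMOX1 every siRNA-2 library lay above and every siRNA-3 library below the scrambled siRNA libraries, a difference of 1.89 that was not tested because HMOX1 was chosen on it.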

How the results depend on the processing

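The siRNA-2 values rest on 3 uneven libraries, and its calls depend on the fit. Of the 8 members other than HMOX1 and FTH1, 0 passed with siRNA-2. With DESeq2, SLC40A1 and SLC11A2 made it 2. They did so too with the title code as a replicate block (adjusted p = 0.0365 and 0.0263 by edgeR's test with the block). Replicate 3 of siRNA-2 and replicate 1 of the scrambled siRNA share code 16-1. Their deviations correlated at 0.0144, and the code was not taken to pair these libraries. With siRNA-3, DESeq2 made it 1 (IREB2, adjusted p = 0.0391), and for the scrambled controls 1 of 10 (SLC40A1, 0.0234). Between the siRNAs the count was 1 in place of 2 with lane 1 alone and with only the groups compared, SLC40A1 being lost (0.0646 and 0.0829), and 3 with the block, ACO1 being gained (log2 -0.41, 0.0204). Without 1 library the counts ran from 0 to 2 with siRNA-2, 0 to 1 with siRNA-3, 1 to 2 between the siRNAs and 0 to 1 for the controls. The counts with the shRNA and for siRNA-2 minus shRNA were 0 in every alternative run. Over all genes, 299 passed with siRNA-2 (1 with only the groups compared to 907 with DESeq2, and 2 to 619 without 1 library), 323 with siRNA-3 (56 to 856, and 69 to 530), 2191 between the siRNAs (530 to 2794 with the block, and 1091 to 2101), 264 for the controls (118 to 658, and 32 to 456), 5 for siRNA-2 minus shRNA (0 to 127, and 0 to 18) and 3 with the shRNA (1 to 3, and 1 to 2). Listed genes past the threshold numbered 0 to 10 with siRNA-2, 1 to 4 with siRNA-3, 6 to 22 between the siRNAs, 0 to 4 for the controls, 0 to 4 for siRNA-2 minus shRNA and 0 with the shRNA. HMOX1 and FTH1 kept their sign with siRNA-2 in all alternatives, at 0.73 to 1.54 and 0.50 to 1.04. They were chosen on that sign in the same libraries, so nothing is read from its being kept.

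Small differences turned sign, and the cause was not tested. With the shRNA, ACO1 was -0.0010 under a filter of 5 CPM in 3 libraries and -0.022 with lane 1 alone. SLC40A1 was -0.0037 under that filter, -0.0013 with DESeq2's size factors, -0.0014 with its test and -0.0016 with no filter. With siRNA-3, TFRC was -0.0068 under that filter, -0.0065 with lane 1 alone, -0.00048 with only the groups compared and -0.098 with the replicate block, and SLC40A1 was 0.099 with the block. FTH1 with the shRNA, at -0.03, was 0.040 with the block and ran from -0.096 to 0.039 without 1 library. The block turned BLVRB to 0.075 and TFRC to -0.067 for siRNA-2 minus shRNA. It changed no member's call with the shRNA, where the codes pair the libraries, and could not be fitted for the scrambled controls. Leaving out 1 library gave these ranges. FTL ran from -0.026 to 0.089 with the shRNA, -0.11 to 0.34 with siRNA-2, -0.086 to 0.22 with siRNA-3, -0.18 to 0.27 between the siRNAs and -0.15 to 0.30 for siRNA-2 minus shRNA. TFRC ran from -0.28 to 0.027 with the shRNA, -0.17 to 0.086 with siRNA-2, -0.20 to 0.17 with siRNA-3, -0.21 to 0.13 between the siRNAs, -0.096 to 0.23 for siRNA-2 minus shRNA and -0.24 to 0.092 for the controls. ACO1 ran from -0.072 to 0.057 with the shRNA, -0.020 to 0.15 with siRNA-3 and -0.0091 to 0.12 for the controls. SLC40A1 ran from -0.16 to 0.12 with the shRNA and -0.16 to 0.11 with siRNA-3. NCOA4 ran from -0.0041 to 0.046 with the shRNA and -0.063 to 0.012 with siRNA-3. BLVRB ran from -0.050 to 0.053 with siRNA-2.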
